A study of Mus musculus with 4 samples.

Results

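The genes described here are 10 targets and feedback regulators of the transcription factor NF-kB: Nfkb1, Relb, Nfkbia, Nfkbiz, Bcl3, Tnfaip3, Traf1, Ier3, Tnfaip2 and Ptgs2. They were taken by symbol from the raw matrices, where each was present, out of 32245 symbols in all. The study profiled cells of the mouse gum (gingiva) one by one in droplets, in 4 groups of 1 library each: healthy gingiva, gingiva with metformin treatment, diseased gingiva, and diseased gingiva treated with metformin. Metformin is a diabetes drug. The tissue came from the upper jaw and was digested with collagenase type II before capture. Strain, age, sex, dose, the way disease was induced and how many mice went into a library are not stated in the labels. The label of the metformin library reads only metformin treatment and does not state that its gingiva was healthy. With 1 library in a group no difference between groups has a replicate check, no test was made, and every interval below is a 95% interval that covers counting error only. The intervals treat UMIs (unique molecular identifiers, the tags by which RNA molecules are counted) as independent draws and are too narrow where few barcodes hold most UMIs of a gene.

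NF-kB is a family of transcription factors that is held in the cytoplasm by inhibitor proteins of the IkB family. Ligands such as TNF and IL-1, and bacterial products, start a kinase cascade that destroys the inhibitor and lets the dimer enter the nucleus. Many of its targets then restrain it: Nfkbia encodes the inhibitor IkB-alpha, and Tnfaip3 encodes A20, a ubiquitin-editing enzyme that shuts down signals from the receptors. In gingiva the pathway is known for its part in the response of the epithelium and of recruited white blood cells to plaque bacteria.

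The promoters of 7 of the 10 genes were in the RefSeq table of the build GRCm38.p6, and those of Nfkbiz, Nfkb1 and Relb were not among them. The 250 bases before each start were searched on both strands for the NF-kB 10-base consensus, which was found in 1643 of the 32851 windows of that length in the table (5.0%). Nfkbia, Tnfaip3 and Tnfaip2 each held 1 match, and the sites are shown since these are an inhibitor, a feedback enzyme and a target of the same pathway whose levels are followed through the cells below. Each stretch is 30 bases, written 5′ to 3′ on the strand of the gene, with the match in capitals. The match reads as the consensus on the opposite strand.
Nfkbia, chr12:55492657-55492686, minus strand: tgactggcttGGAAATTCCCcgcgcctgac
Tnfaip3, chr10:19015411-19015440, minus strand: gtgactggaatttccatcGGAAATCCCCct
Tnfaip2, chr12:111442627-111442656, plus strand: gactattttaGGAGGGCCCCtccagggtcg
Starts here are those of the RefSeq table. The gene ranges given further on come from GENCODE vM21, whose models of Tnfaip3 and Tnfaip2 begin farther upstream, so that both of these sites lie inside them. In Nfkbia the match lay 29 to 20 bases before the start, in Tnfaip3 12 to 3 bases and in Tnfaip2 24 to 15 bases. Bcl3, Ier3, Ptgs2, Traf1 and a second start of Tnfaip3 held no match in these windows. A match is a description of the letters and was not set against binding, which was not measured here.

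Of the deposited barcodes, 1307 healthy, 2476 metformin, 1692 disease and 1654 disease plus metformin barcodes were kept, with 10863807, 19490708, 12696972 and 11984684 UMIs. Barcodes without a mitochondrial UMI made up 21.5 to 33.1% of each library, and doublets remain among the barcodes. Clusters were named from marker lists, with the 10 genes and the pathway lists left out of the clustering. They gave keratinocyte-like (696, 1217, 1046 and 690 barcodes in the order healthy, metformin, disease, disease plus metformin), gland-like (334, 277, 235, 509), endothelial-like (46, 64, 108, 29), fibroblast-like (26, 48, 60, 10) and leukocyte-like barcodes (22, 30, 51, 27). The 10 fibroblast-like barcodes of the disease plus metformin library were too few to compare. Another 159, 764, 138 and 365 barcodes lay in clusters that met no definition. At most 2 kept barcodes were shared between any pair of libraries. Levels are counts per 1000000 UMIs (CPM), summed over a class in a library, and the values below are always given in the order healthy, metformin, disease, disease plus metformin. They are levels per gene and were not compared between genes.

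Among the 5 classes the leukocyte-like barcodes had the highest level of 7 of the 10 genes in every library. The exceptions were Bcl3, Ier3 and Relb, whose highest class changed with the library. Some of these ranks were close or rested on few UMIs. Nfkb1 in disease was at 196 CPM against 192 in fibroblast-like barcodes. Ptgs2 in disease plus metformin had 3 UMIs, against 1 in endothelial-like barcodes. The fibroblast-like barcodes of the disease plus metformin library were not ranked. All 10 genes together came to 2374, 6378, 3319 and 1956 CPM in leukocyte-like barcodes, and to 310, 329, 380 and 366 CPM over all kept barcodes. As a background for free RNA, the erythroid-like barcodes (10, 53, 24 and 13) were read, red cells that have no nucleus. They held 8.49, 39.0, 3.91 and 8.11 CPM of the 10 genes together, on 1, 28, 1 and 1 UMIs. The red cells' own RNA lowers these CPM. They therefore set no upper limit on free RNA in shallower barcodes, where its part was not measured. Nfkbia UMIs were found in 63.6, 86.7, 66.7 and 74.1% of leukocyte-like barcodes, at median depths of 3377.5, 6355, 2978 and 3494 UMIs. They were found in 10, 13.2, 4.17 and 0% of the erythroid-like barcodes, at median depths of 12391, 14445, 11562 and 9659 UMIs.

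**Figure D1:**
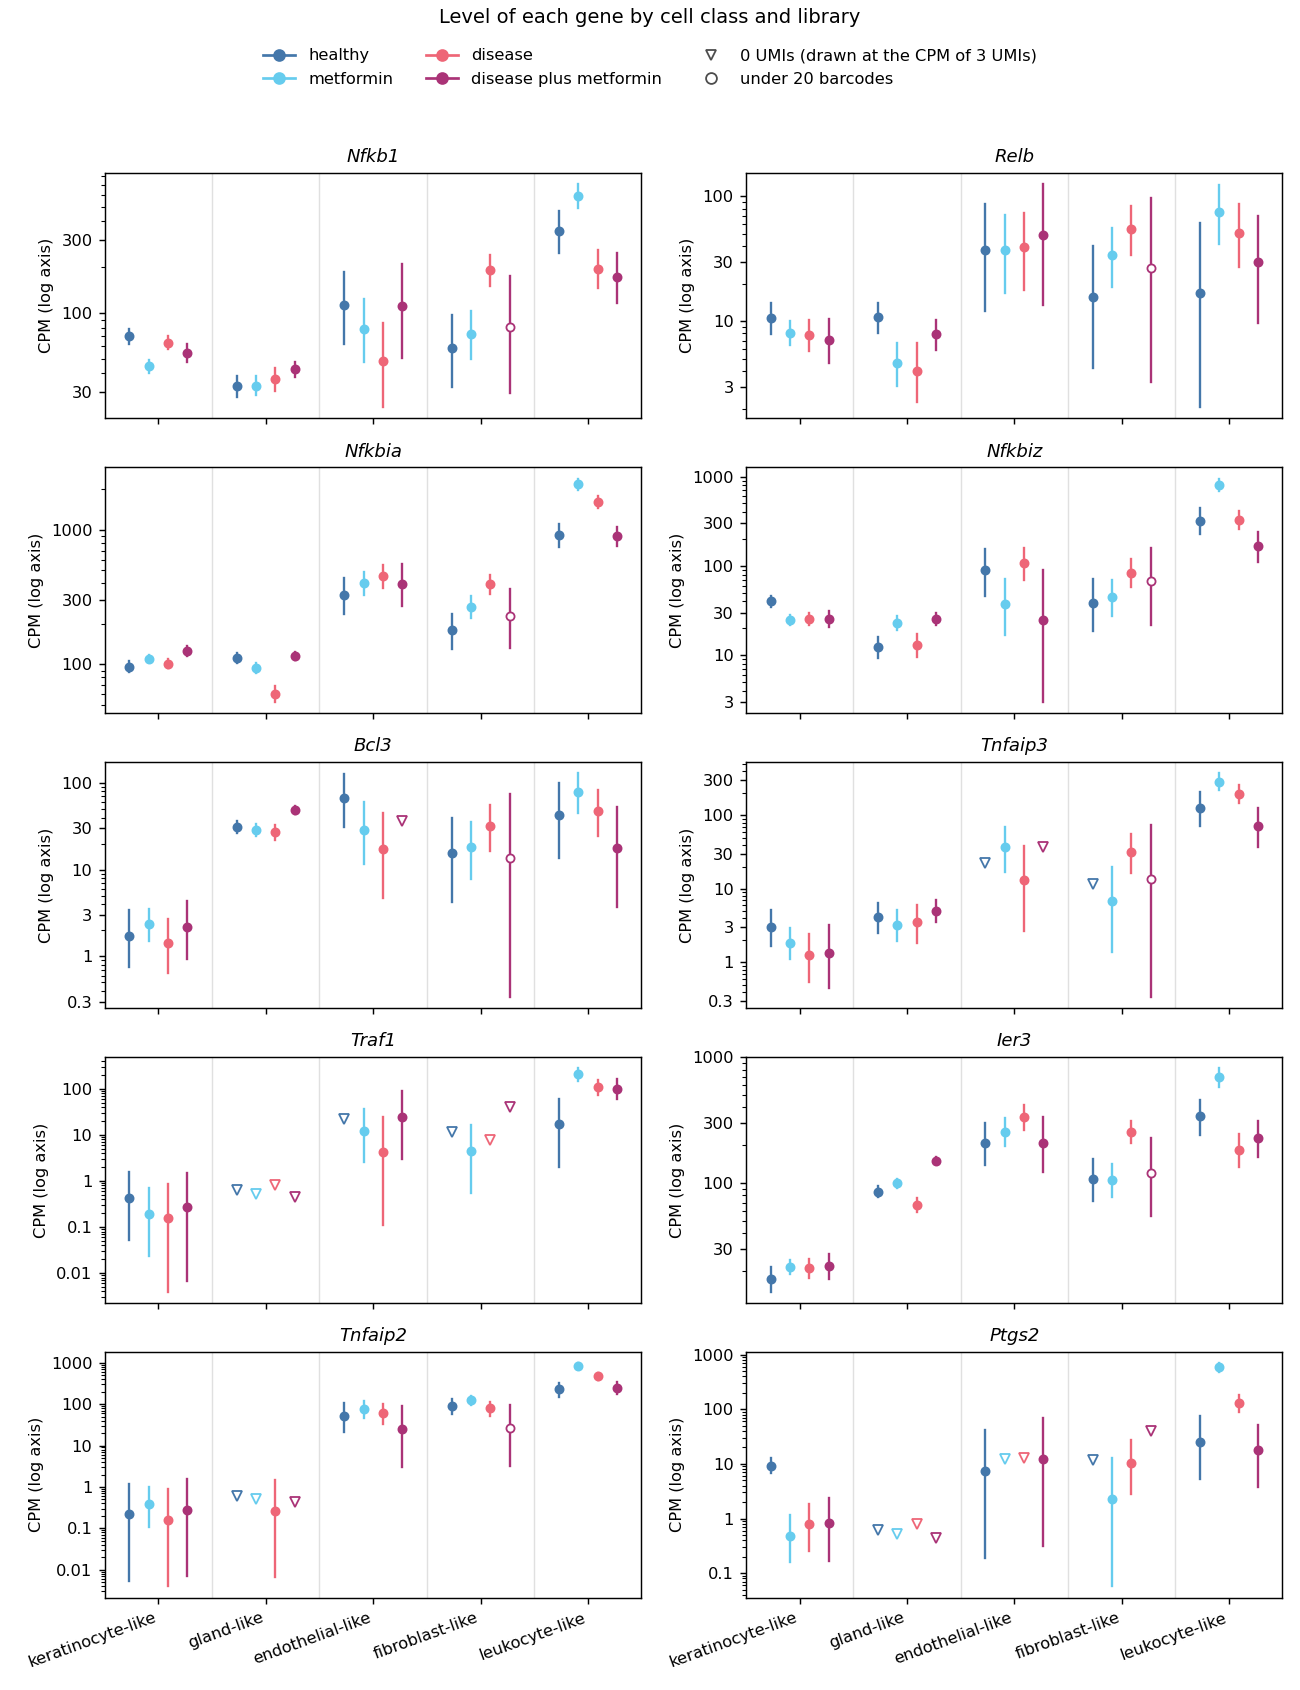
Level of each of the 10 genes (CPM, log axis) by cell class, with 1 point for each library and lines for the 95% Poisson interval of its count. Leukocyte-like cells lie highest for Nfkb1, Nfkbia, Nfkbiz, Tnfaip3, Traf1, Tnfaip2 and Ptgs2 in every library, and Ptgs2 and Traf1 had 0 UMIs in gland-like cells, where triangles mark the CPM that 3 UMIs would give.

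The subunits came first in the pathway's order. Nfkb1 (chr3:135584655-135691547 in GRCm38) encodes p105, the precursor of the DNA-binding subunit p50. Its level in leukocyte-like barcodes was 348, 591, 196 and 173 CPM, and in keratinocyte-like barcodes 70.1 (62.6 to 78.2), 44.4 (40.4 to 48.6), 63.4 (57.3 to 69.8) and 54.6 CPM (47.3 to 62.7). In gland-like barcodes it was 32.8, 33.1, 36.4 and 42.4 CPM. Keratinocyte-like barcodes held 53.3, 50.1, 51.9 and 32.5% of its UMIs. Relb (chr7:19606217-19629438) encodes the subunit of the noncanonical branch of the pathway. It gave 10.8 (8.06 to 14.2), 4.65 (3.07 to 6.77), 4.05 (2.26 to 6.67) and 7.88 CPM (5.9 to 10.3) in gland-like barcodes. There the healthy interval overlapped that of the disease plus metformin library but neither of the other libraries. In leukocyte-like barcodes Relb rested on 2, 15, 13 and 5 UMIs.

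The inhibitors of the IkB family differed in where they were found. Nfkbia (chr12:55489410-55492647) was detected in all 5 classes of every library. It stood at 907 (744 to 1096), 2186 (1986 to 2400), 1609 (1457 to 1772) and 897 CPM (759 to 1053) in leukocyte-like barcodes, with the metformin library highest and the healthy and disease plus metformin libraries overlapping. Endothelial-like barcodes had 329, 401, 452 and 394 CPM with overlapping intervals. Nfkbiz (chr16:55811375-55838899) encodes IkB-zeta, an atypical member that works in the nucleus as a coactivator of secondary targets. It was at 322, 815, 329 and 168 CPM in leukocyte-like and at 40.1, 24.9, 25.3 and 25.4 CPM in keratinocyte-like barcodes. Bcl3 (chr7:19808462-19822770), another nuclear member that binds p50 and p52 dimers, had most of its UMIs in gland-like barcodes. Gland-like barcodes gave 79.7, 68.6, 55.8 and 90.9% of its UMIs, at 30.9, 28.6, 27.2 and 49.2 CPM, against 1.74, 2.35, 1.41 and 2.18 CPM in keratinocyte-like barcodes. Leukocyte-like barcodes held 42.4, 79.5, 47 and 18 CPM of it, on 5, 16, 12 and 3 UMIs. The endothelial-like level was 67.2, 28.9, 17.4 and 0 CPM, so the highest class changed with the library. Gland-like barcodes were 25.6, 11.2, 13.9 and 30.8% of kept barcodes and held a larger share of all UMIs.

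Of the feedback genes, Traf1 came mostly from leukocytes in 3 of the 4 libraries, while the class that gave most Tnfaip3 UMIs changed. Leukocyte-like barcodes gave 28.3, 51.3, 51.6 and 20.7% of the Tnfaip3 UMIs and gland-like barcodes 37.7, 16.8, 13.4 and 58.6%. Such shares depend on how much of a library's RNA a class gave as well as on the level of the gene. Tnfaip3 (chr10:19000910-19015657) stood at 127, 288, 196 and 71.8 CPM in leukocyte-like barcodes and at 4.15, 3.27, 3.51 and 5.05 CPM in gland-like barcodes. Keratinocyte-like barcodes held 3.04, 1.86, 1.25 and 1.36 CPM of it. Traf1 (chr2:34941750-34961772), an adaptor that binds TNF receptor complexes, had 2, 42, 28 and 17 UMIs in leukocyte-like barcodes. That was 40, 82.4, 77.8 and 85% of all its UMIs. No Traf1 UMI was found in gland-like barcodes of any library, which allows a level of up to 0.623, 0.517, 0.809 and 0.446 CPM.

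Of the other targets, Ier3 (chr17:35821684-35822923), an immediate-early gene that protects cells from death during TNF signalling, was found in every class. Its gland-like level was 85.7 (77.6 to 94.4), 99.6 (91.6 to 108), 67.2 (59.1 to 76) and 151 CPM (142 to 160), with the disease plus metformin library above all others. Endothelial-like barcodes had 209, 256, 335 and 209 CPM and keratinocyte-like barcodes 17.4, 21.7, 21.1 and 21.8 CPM. Tnfaip2 (chr12:111442469-111455018), a TNF-induced gene of endothelium and white blood cells, stood at 229, 854, 470 and 251 CPM in leukocyte-like barcodes. It was at 89.3, 124, 79 and 26.9 CPM in fibroblast-like barcodes, and gave at most 4 UMIs in keratinocyte-like and 1 in gland-like barcodes of a library. Ptgs2 (chr1:150100031-150108227) encodes cyclooxygenase-2, the inducible enzyme of prostaglandin synthesis, and no UMI of it was found in gland-like barcodes.

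The source of Ptgs2 changed between libraries. In healthy gingiva keratinocyte-like barcodes gave 91.5% of its UMIs (43 of 47), spread over 21 barcodes. In the metformin library leukocyte-like barcodes gave 95.2% (118 of 124), from 11 barcodes, and in the disease library 75% (33 of 44), from 5 barcodes. The disease plus metformin library held 7 Ptgs2 UMIs in 5 barcodes, of which 3 UMIs were keratinocyte-like and 3 leukocyte-like. All keratinocyte-like values after the healthy library rested on 3 barcodes each.

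**Figure D2:**
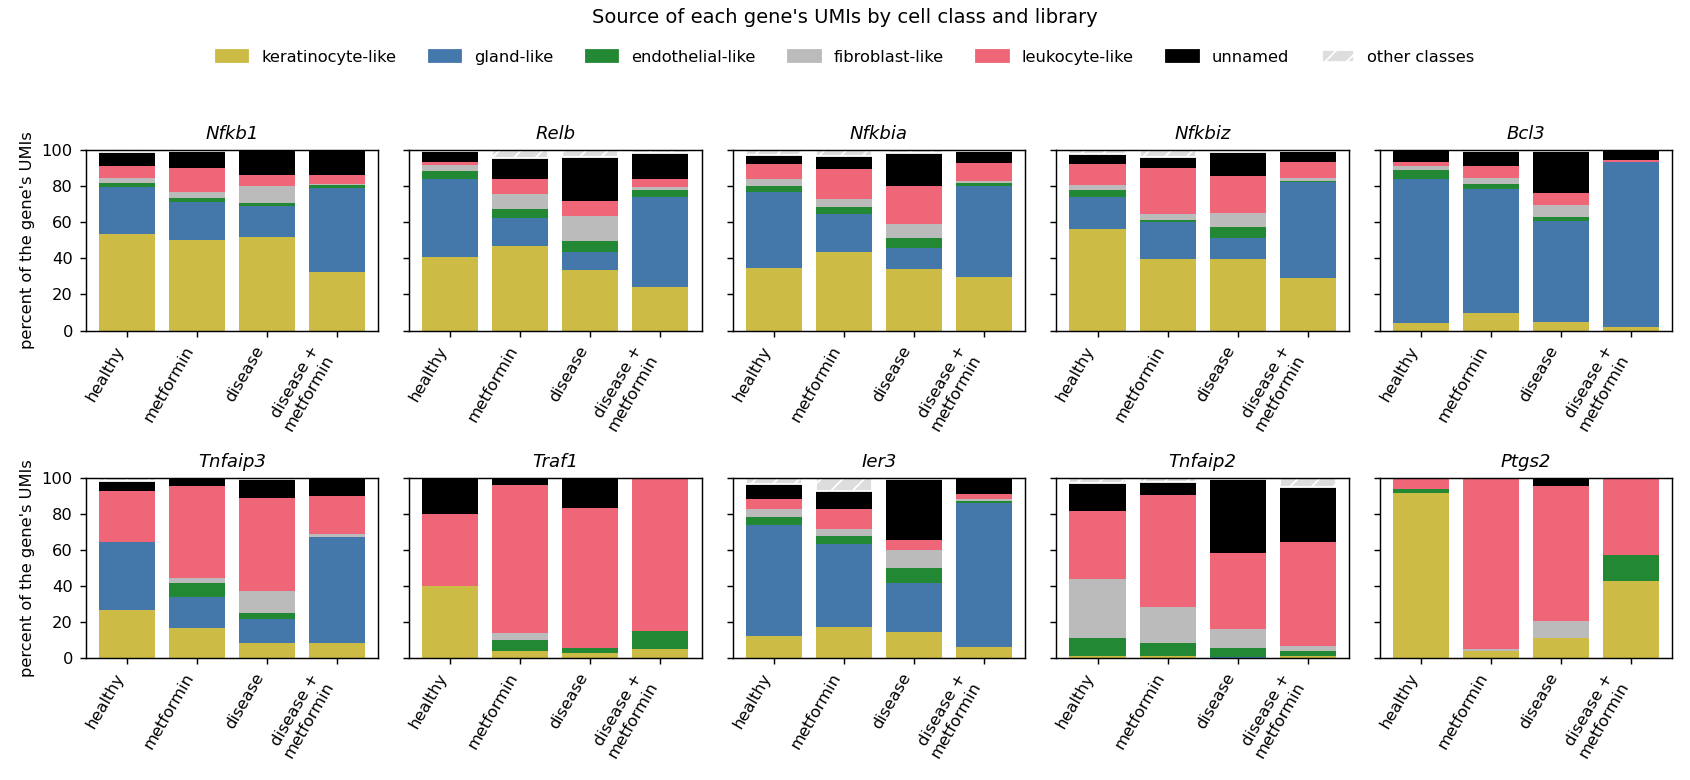
Percent of each gene's UMIs that came from each cell class (stacked bars to 100%), by library. Keratinocyte-like cells give 91.5% of Ptgs2 UMIs in the healthy library and 4.03% in the metformin library, gland-like cells give 55.8 to 90.9% of Bcl3 UMIs, and unnamed clusters give 41.3% of Tnfaip2 and 34.1% of Ier3 UMIs in the disease library.

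Over all kept barcodes, the 10 genes were compared between libraries as ratios of CPM. A gene was measured with at least 20 UMIs over both libraries, and called higher or lower when its ratio was at least 1.5-fold and its counting interval excluded no difference. In sums over all barcodes, fewer cells of a type and less RNA per cell cannot be told apart. Another scaling of the libraries moved the median of all genes by -0.15 or -0.13 on the log2 scale in disease against healthy, and by 0.12 or 0.19 in disease plus metformin against disease. The comparisons are not independent, since each library enters more than 1 of them.

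Diseased gingiva held more Tnfaip2, Traf1 and Tnfaip3 RNA than healthy gingiva. Tnfaip2 stood at 22.5 CPM (20 to 25.3) in disease and 6.54 (5.1 to 8.24) in healthy gingiva, 3.45-fold higher. Traf1 was 6.16-fold higher on 36 against 5 UMIs, and Tnfaip3 1.57-fold higher (log2 interval 0.15 to 1.16). The Tnfaip3 call ended with the median of ratios, at a log2 ratio of 0.51 in place of 0.65. The other 7 genes were not called: Nfkbia was at 151 CPM against 118, Nfkb1 at 61.5 against 55.8, Relb at 11.8 against 11, and Nfkbiz at 32.4 against 30.4. So 3 of 10 genes were called, all higher, where 16.8% of the 14479 genes measured were called in either direction, 12.3% higher and 4.58% lower. The median log2 ratio of the 10 genes was 0.20, beside 0.15 for all genes. Unnamed clusters held much of the Tnfaip2 and Ier3 RNA of the disease library, and without them the log2 ratio of Tnfaip2 was 1.32 in place of 1.79 and that of Ier3 was -0.17 in place of 0.25.

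Inside the classes, disease against healthy did not have 1 direction. In fibroblast-like barcodes 5 of 6 measured genes were called higher (31.5% of 5521 genes were called, 14.9% higher and 16.5% lower). Nfkb1 was at 192 CPM (151 to 242) in disease and 58.3 (32.6 to 96.1) in healthy gingiva, Relb at 55.3 and 15.5, Ier3 at 255 and 109, Nfkbia at 392 (332 to 461) and 179 (131 to 238), and Nfkbiz at 84.3 and 38.8. These values rest on 60 and 26 barcodes, and 1 barcode held 29.6% of the Nfkb1 UMIs. None of the 5 calls held under every alternative. When each barcode was given the class whose markers it held most of, the log2 ratio came to 0.09 for Nfkb1 in place of 1.72, to 0.29 for Relb in place of 1.83 and to 0.35 for Nfkbia in place of 1.14. Immediate-early and dissociation response genes, such as Fos, Jun and Egr1, went with them: 13 of 21 measured were called higher and 0 lower, and their summed level was 12626 CPM in disease and 5655 in healthy gingiva. Their part in the result was not tested.

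In leukocyte-like barcodes of the disease library 4 of 8 measured genes were called higher than in the healthy library and 2 lower, where 24.0% of 3130 genes were called, 12.7% higher and 11.2% lower. Traf1 was 6.46-fold, Ptgs2 5.08-fold, Tnfaip2 2.05-fold and Nfkbia 1.77-fold higher, while Ier3 was 1.84-fold and Nfkb1 1.78-fold lower. A single barcode held 44.4% of the Ptgs2 UMIs. Without the barcode with most Tnfaip2 UMIs in each library the log2 ratio of Tnfaip2 was 3.45 in place of 1.04. With every barcode weighted equally it was 0.60, and the Tnfaip2 call ended. With classes given barcode by barcode from markers, Ier3 came to 0.09 and Nfkb1 to -0.04, and neither was called. Of the immediate-early and dissociation response genes, which include Fos, Jun and Egr1, 7 of 20 were called higher in these barcodes and 2 lower.

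In the epithelium disease went with lower levels of single genes. In keratinocyte-like barcodes 2 of 7 measured genes were called, both lower (8.39% of 11630 genes were called, 4.58% higher and 3.81% lower). Ptgs2 was at 0.782 CPM (0.254 to 1.83) in disease against 9.33 (6.75 to 12.6), and Nfkbiz at 25.3 (21.6 to 29.6) against 40.1 (34.6 to 46.4). With every barcode weighted equally the log2 ratio of Nfkbiz was -0.03 in place of -0.66, and the Ptgs2 call held under all 11 alternatives. Most keratinocyte-like RNA came from 1 RNA-rich cluster led by Cpa6, Mt4 and Sox6, which gave 57.3 to 75.7% of the UMIs of the class in 6.09 to 13.8% of its barcodes. Within that cluster Nfkbiz was at 51.9, 40.6, 33.2 and 36.3 CPM and Nfkbia at 93.1, 114, 105 and 134 CPM. Ptgs2 there was at 11.2 CPM in healthy, 0.853 in metformin and 1.09 CPM in disease libraries, on 39, 5 and 5 UMIs. In endothelial-like barcodes 1 of 5 genes was called higher, Ier3 at 335 against 209 CPM, and 1 lower, Nfkb1 at 47.8 against 112 CPM on 11 and 15 UMIs (14.4% of 3315 genes were called, 5.37% higher and 9.08% lower). With every barcode weighted equally the log2 ratio of Ier3 was -0.01, and without the barcode with most Nfkb1 UMIs in each library that of Nfkb1 was -0.63 in place of -1.23 and was not called.

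In gland-like barcodes 2 of 7 genes were called lower in disease and none higher, where 11.7% of 10367 genes were called, 7.85% higher and 3.89% lower. Nfkbia was at 60.1 CPM (52.5 to 68.6) in disease against 112 (102 to 122) in healthy gingiva, and Relb at 4.05 against 10.8 CPM. Within the largest gland-like clusters, numbered 2 and 3, Nfkbia stood at 75.4 against 122 CPM and at 34 against 137 CPM. Of the immediate-early list, 6 of 22 genes were called lower in the same cells and 0 higher. The class was made of different clusters in each library: cluster 2 gave 45.9, 62.3, 60.8 and 62.5% of its UMIs and cluster 3 gave 33.2, 11.4, 36.5 and 32.7%. Cluster 12 gave 18.6% in healthy, 24.5% in metformin and 1.97% in disease plus metformin libraries and had no disease barcode. The Nfkbia and Relb calls depended on how the clusters were drawn, as given below with the other gland comparison.

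**Figure D3:**
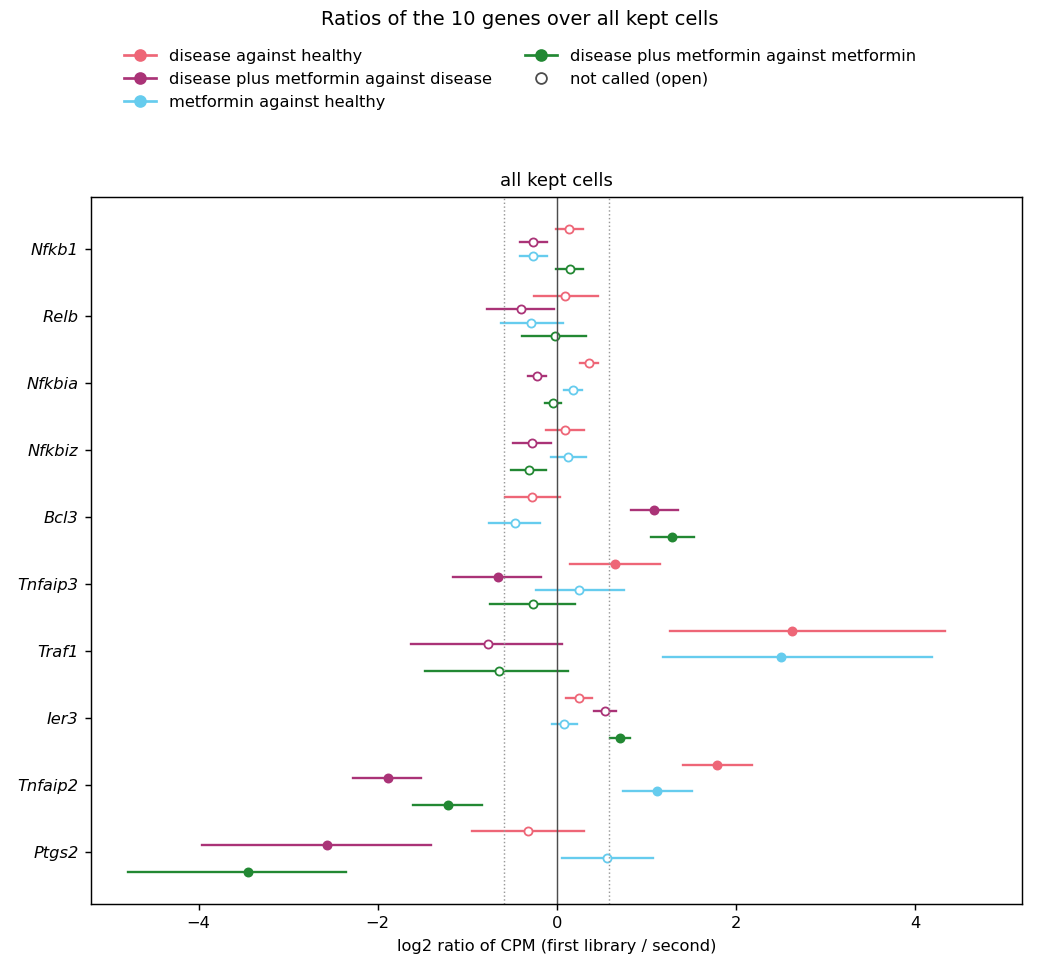
Log2 ratio of CPM of each gene over all kept cells in the 4 comparisons, with 95% counting intervals. Filled points are called (at least 1.5-fold, dotted lines, with an interval that excludes 0), and Tnfaip2 is higher in disease and in metformin than in healthy gingiva and lower in disease plus metformin than in either.

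Diseased gingiva with metformin held less Tnfaip2, Ptgs2 and Tnfaip3 RNA and more Bcl3 RNA than diseased gingiva without it. Tnfaip2 was at 6.09 CPM (4.77 to 7.66) against 22.5 (20 to 25.3), 3.70-fold lower. Ptgs2 was 5.93-fold lower on 7 against 44 UMIs, and Tnfaip3 1.58-fold lower (log2 interval -1.15 to -0.17), a call that ended with the median of ratios (log2 ratio -0.47). Bcl3, at 30.4 CPM (27.3 to 33.7) against 14.3 (12.3 to 16.5), was 2.13-fold higher. Ier3 was at 106 CPM (101 to 112) against 73.1 (68.5 to 77.9), a 1.46-fold difference that was not called, and it passed 1.5-fold with the median of ratios (log2 ratio 0.73). In all, 1 of 10 genes was called higher and 3 lower, where 28.4% of 14381 genes were called, 21.4% of them lower and 7.04% higher. The median log2 ratio of the 10 genes was -0.34, beside -0.24 for all genes. The gland-like share of barcodes was 30.8% in this library and 13.9% in the disease library, and gland-like barcodes gave 90.9 and 55.8% of the Bcl3 UMIs.

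The gland-like and leukocyte-like barcodes had opposite directions in that comparison. In gland-like barcodes 5 of 7 measured genes were called higher with metformin and none lower, where 9.99% of 10774 genes were called, 6.01% higher and 3.98% lower. Ier3 was 2.25-fold higher (log2 interval 0.97 to 1.37), Nfkbiz 1.95-fold at 25.3 CPM against 12.9, Relb 1.95-fold at 7.88 against 4.05, Nfkbia 1.92-fold at 115 against 60.1, and Bcl3 1.81-fold at 49.2 against 27.2. Nfkb1 and Tnfaip3 were not called, at 42.4 against 36.4 CPM and 5.05 against 3.51. The median log2 ratio of the 7 genes was 0.94, beside -0.02 for all genes measured in these barcodes.

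The gland values were also read inside clusters. In gland-like cluster 2 Nfkbia was at 122, 95.4, 75.4 and 125 CPM, Ier3 at 73.2, 91.3, 63.9 and 156 CPM, and Bcl3 at 28, 25.2, 25.7 and 40 CPM. In gland-like cluster 3 Nfkbia was at 137, 139, 34 and 97.7 CPM, Ier3 at 98, 129, 76.1 and 151 CPM, and Bcl3 at 46.2, 56, 31 and 67.7 CPM. In both clusters the disease library was lowest for Nfkbia and Ier3. Relb was at 12.7, 3.04, 3.99 and 7.14 CPM in cluster 2 and at 13.7, 12.1, 4.43 and 10 CPM in cluster 3, and Nfkbiz at 6.33, 19.9, 11.5 and 17.1 CPM and at 23.1, 39.4, 16.3 and 42.3 CPM. For disease plus metformin against disease the Relb interval included no difference in both clusters and the Nfkbiz interval in cluster 2. Immediate-early and dissociation response genes had the same direction in gland-like barcodes: 15 of 22 were called higher and 0 lower, with a median log2 ratio of 1.17 and a summed level of 4616 CPM against 2307 in disease. Their part in the result was not tested.

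The gland calls changed with the resolution of the clustering. At Leiden resolution 2 part of an unnamed cluster, with 14, 276, 1 and 73 barcodes, joined the gland class. So did an unnamed cluster led by Ltf, Lyz2 and Wfdc18, whose 16 disease barcodes gave 15.4% of the class UMIs of that library, against 1.3 to 4.5% in the other libraries. At resolution 1 the 17 disease barcodes of the Ltf-led cluster held 352 CPM of Nfkbia and 376 CPM of Ier3, and 35% of those Nfkbia UMIs came from 1 barcode. At resolution 2 the log2 ratio of Nfkbia was 0.01 in place of 0.94, that of Ier3 0.31 in place of 1.17, that of Nfkbiz 0.51 in place of 0.97 and that of Relb -0.23 in place of 0.96, so 4 of the 5 calls ended. In disease against healthy gland-like barcodes Nfkbia came to 0.04 in place of -0.89 and Relb to -0.14 in place of -1.42. The Bcl3 call in disease plus metformin against disease held at that resolution and under all 11 alternatives.

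In leukocyte-like barcodes 5 of 8 measured genes were called lower with metformin in diseased gingiva and none higher, where 27.5% of 3552 genes were called, 16.5% higher and 11.0% lower. Ptgs2 was 7.20-fold lower on 3 against 33 UMIs, Tnfaip3 2.73-fold at 71.8 against 196 CPM, Nfkbiz at 168 against 329 CPM, Tnfaip2 1.87-fold at 251 against 470, and Nfkbia 1.79-fold at 897 against 1609. A single dendritic- and Langerhans-like barcode held 31 of the 42 Tnfaip2 UMIs with metformin. Without the barcode with most Tnfaip2 UMIs in each library the log2 ratio was -2.50 (-3.55 to -1.59) in place of -0.90. Without the 5% of barcodes with the most UMIs the calls of Tnfaip2 (log2 ratio -0.39), Nfkbiz (-0.46) and Nfkbia (-0.36) ended. The median log2 ratio was -0.87, beside 0.13 for all genes. Of these 5 calls that of Tnfaip3 held under all 13 alternatives. Neutrophil-like barcodes differ between these libraries and are described next. In keratinocyte-like barcodes 0 of 5 measured genes was called (11.3% of 11441 genes were called, 2.30% higher and 9.02% lower), with Nfkbia at 126 against 102 CPM. In endothelial-like barcodes 1 of 4 was called, Nfkbiz, 4.41-fold lower on 2 against 25 UMIs (9.44% of 2828 genes were called, 5.13% higher and 4.31% lower). With classes given barcode by barcode from markers, this call ended, at a log2 ratio of -0.74 (-2.71 to 0.78). Of the immediate-early list 7 of 15 genes were called lower in endothelial-like barcodes and 0 higher. Their part in the result was not tested.

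Leukocyte-like barcodes split into 6 subclusters, named macrophage- and monocyte-like, dendritic- and Langerhans-like, T- and NK-like, B- and plasma-like, and 2 with neutrophil markers. The subcluster with Retnlg and Cxcr2, genes of mature neutrophils, had 2, 5, 10 and 0 barcodes, and S100a9 was found in all 17. These few barcodes held 9708 CPM of Nfkbia (8785 to 10700), 5321 CPM of Tnfaip2 (4644 to 6069) and 2757 CPM of Ptgs2 (2276 to 3309). Nfkbia there was at 3574 CPM in the healthy, 9875 in the metformin and 11180 in the disease library, and Ptgs2 at 198.5, 4767 and 1574 CPM on 1, 84 and 30 UMIs. The other subcluster, with Ngp and Camp, genes of immature neutrophils, had 3, 9, 3 and 2 barcodes. S100a8 UMIs were found in only 5 of its 17 barcodes, and its 2 disease plus metformin barcodes held 0 UMIs of the 11 neutrophil markers, so it is not called neutrophil-like here. Neutrophil-like barcodes were found in 3 libraries and in 0 of the 27 leukocyte-like barcodes of diseased gingiva with metformin, which allows a share of up to 11.1%.

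Leaving out the Retnlg-bearing subcluster, a choice made after seeing the data, ended 4 of the 5 leukocyte calls in disease plus metformin against disease. Nfkbia was then at 788, 1448, 838 and 897 CPM, and Tnfaip2 at 26.6, 207, 237 and 251 CPM. For disease plus metformin against disease, the log2 ratio of Nfkbia was 0.10 (-0.22 to 0.41) in place of -0.84, that of Nfkbiz 0.22 in place of -0.97, and that of Tnfaip2 0.09 in place of -0.90, the last with the barcode of 31 UMIs still in the sum. Tnfaip3 kept its call, at 71.8 against 169 CPM and a log2 ratio of -1.24 (-2.30 to -0.28). Ptgs2 was left with 3 UMIs in each library, below the 20 that a call needs, at 0.50 (-2.40 to 3.40). Ier3, not called with all barcodes, came to 0.75 (0.03 to 1.47). For disease against healthy, the ratio of Nfkbia came to 0.09 in place of 0.83, and that of Tnfaip2 to 3.16 (1.53 to 5.48) in place of 1.04. The lower calls of Ier3 and Nfkb1 ended, and Traf1 kept its call in disease against healthy.

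**Figure D4:**
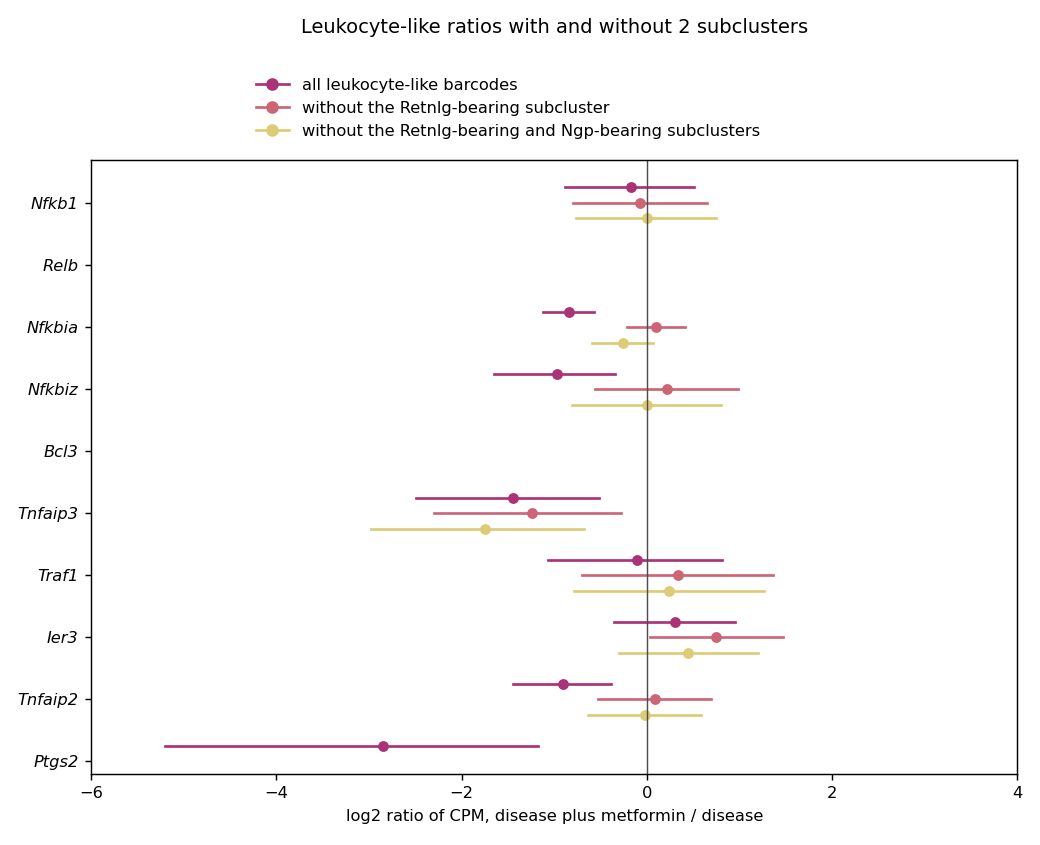
Log2 ratio of CPM in leukocyte-like cells, disease plus metformin over disease, for all barcodes and without the subclusters that carry Retnlg or Ngp, with 95% counting intervals. Nfkbia, Nfkbiz and Tnfaip2 lie below 0 with all barcodes and near 0 without the Retnlg-bearing subcluster, and Tnfaip3 lies below 0 in each setting.

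The remaining leukocyte types were too few in a library to be ordered. Nfkbia was at 1195, 1076, 1622 and 1882 CPM in macrophage- and monocyte-like barcodes (3, 4, 7 and 8). In dendritic- and Langerhans-like barcodes (0, 5, 12 and 2) it was at 2955, 527 and 880 CPM in the 3 libraries that held them, so which of both types was higher differed between libraries. T- and NK-like barcodes (4, 4, 11 and 9) had 124, 404, 850 and 355 CPM and B- and plasma-like barcodes (10, 3, 8 and 6) had 495, 369, 371 and 128 CPM. The levels that follow are over all libraries together. Macrophage- and monocyte-like barcodes had 490 CPM of Nfkbiz and 523 CPM of Ier3. Traf1 was at 146 CPM in dendritic- and Langerhans-like and 143 CPM in T- and NK-like barcodes. No Ptgs2 UMI was found in the dendritic, T and NK, or B and plasma types, nor a Tnfaip2 UMI in the last 2 of these. With 22 macrophage- and monocyte-like and 28 T- and NK-like barcodes in all, the types were not compared between libraries.

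Between the metformin and healthy libraries, genes were called in leukocyte-like, keratinocyte-like and gland-like barcodes, the most in leukocyte-like barcodes. Over all kept barcodes Tnfaip2 was 2.17-fold higher, at 14.2 CPM (12.5 to 15.9) against 6.54 (5.1 to 8.24), and Traf1 5.68-fold higher on 51 against 5 UMIs. These 2 of 10 genes were called, where 15.8% of 14790 genes were, 6.77% higher and 9.05% lower, and the median log2 ratio of the 10 was 0.15, beside -0.06 for all genes. In leukocyte-like barcodes 8 of 9 measured genes were called higher and none lower, where 28.2% of 2719 genes were called, 16.8% higher and 11.4% lower. The median log2 ratio was 1.27, beside 0.04 for all genes.

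Among these leukocyte genes Ptgs2 was 23.0-fold higher on 118 against 3 UMIs and Traf1 12.3-fold on 42 against 2. Tnfaip2 was 3.73-fold, Nfkbiz 2.53-fold, Nfkbia 2.41-fold, Tnfaip3 2.27-fold, Ier3 2.05-fold and Nfkb1 1.70-fold higher. The libraries held 30 and 22 leukocyte-like barcodes of different makeup: 5 and 2 were neutrophil-like, 9 and 3 lay in the Ngp-bearing subcluster, 5 and 0 were dendritic- and Langerhans-like, 4 and 3 macrophage- and monocyte-like, 4 and 4 T- and NK-like, and 3 and 10 B- and plasma-like. The part of this makeup in the result was not tested. Without the neutrophil-like barcodes the log2 ratio of Nfkbia was 0.88 (0.53 to 1.24), of Nfkbiz 1.56 (0.93 to 2.25), of Ier3 1.25 (0.61 to 1.95) and of Nfkb1 1.11 (0.52 to 1.74), and all 8 calls held. With every barcode weighted equally the ratio of Nfkb1 was -0.28, and without the barcode with most Tnfaip2 UMIs in each library that of Tnfaip2 was 4.21 in place of 1.90. Immediate-early and dissociation response genes were higher in the same barcodes, 16 of 19 called higher and 1 lower, at 15970 against 6572 CPM in sum. Their part in the result was not tested.

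In the epithelium single genes differed between the metformin and healthy libraries. In keratinocyte-like barcodes 3 of 8 measured genes were called, all lower, where 21.9% of 11988 genes were called, 3.25% higher and 18.7% lower, and another 3 lay above no difference without a call. Ptgs2 was 19.1-fold lower, at 0.489 CPM against 9.33, Nfkbiz 1.61-fold lower at 24.9 against 40.1, and Nfkb1 1.58-fold lower at 44.4 against 70.1. The Nfkb1 and Nfkbiz calls ended with the median of ratios, at log2 ratios of -0.40 in place of -0.66 and -0.43 in place of -0.69. Of the immediate-early list 1 of 21 genes was called higher in these barcodes and 8 lower. Within the RNA-rich keratinocyte-like cluster Nfkb1 was at 68.8 against 88 CPM and Nfkbiz at 40.6 against 51.9 CPM, both under 1.5-fold. In gland-like barcodes Nfkbiz was 1.87-fold higher, at 22.9 against 12.2 CPM, and Relb 2.32-fold lower, at 4.65 against 10.8 CPM, so 2 of 7 genes were called (15.0% of 11004 genes were, 12.1% higher and 2.93% lower). With every barcode weighted equally the log2 ratio of Nfkbiz was 0.04 in place of 0.90. None of 5 measured genes was called in endothelial-like (14.6% of 3482 genes, 5.43% higher and 9.19% lower) or in fibroblast-like barcodes (25.6% of 5806 genes, 11.7% higher and 13.9% lower).

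The ratio of metformin to healthy libraries is called the metformin ratio in healthy gingiva, though the label does not state healthy tissue. It shares no library with the metformin ratio in diseased gingiva, and both were set against each other. In leukocyte-like barcodes the ratio in disease was below that in healthy gingiva for 8 of 10 genes with a counting interval that excluded 0, and above it for none. In gland-like barcodes the ratio in disease was above for 4, Nfkbia, Bcl3, Ier3 and Relb, and below for 0. It was above for 3 genes in keratinocyte-like and 1 in endothelial-like barcodes. Over all kept barcodes it was below for 6 and above for 2. The share of all genes that pass this rule was not computed. The counts therefore cannot be read as particular to these 10 genes. For Ier3 in gland-like barcodes the log2 ratio was 1.17 in disease and 0.22 in healthy gingiva, and for Bcl3 0.85 and -0.11. Nfkbiz in gland-like barcodes was higher with metformin in both, by 0.97 and 0.90. The leukocyte differences are those in which the neutrophil-like barcodes were 5 against 2 in one ratio and 0 against 10 in the other.

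**Figure D5:**
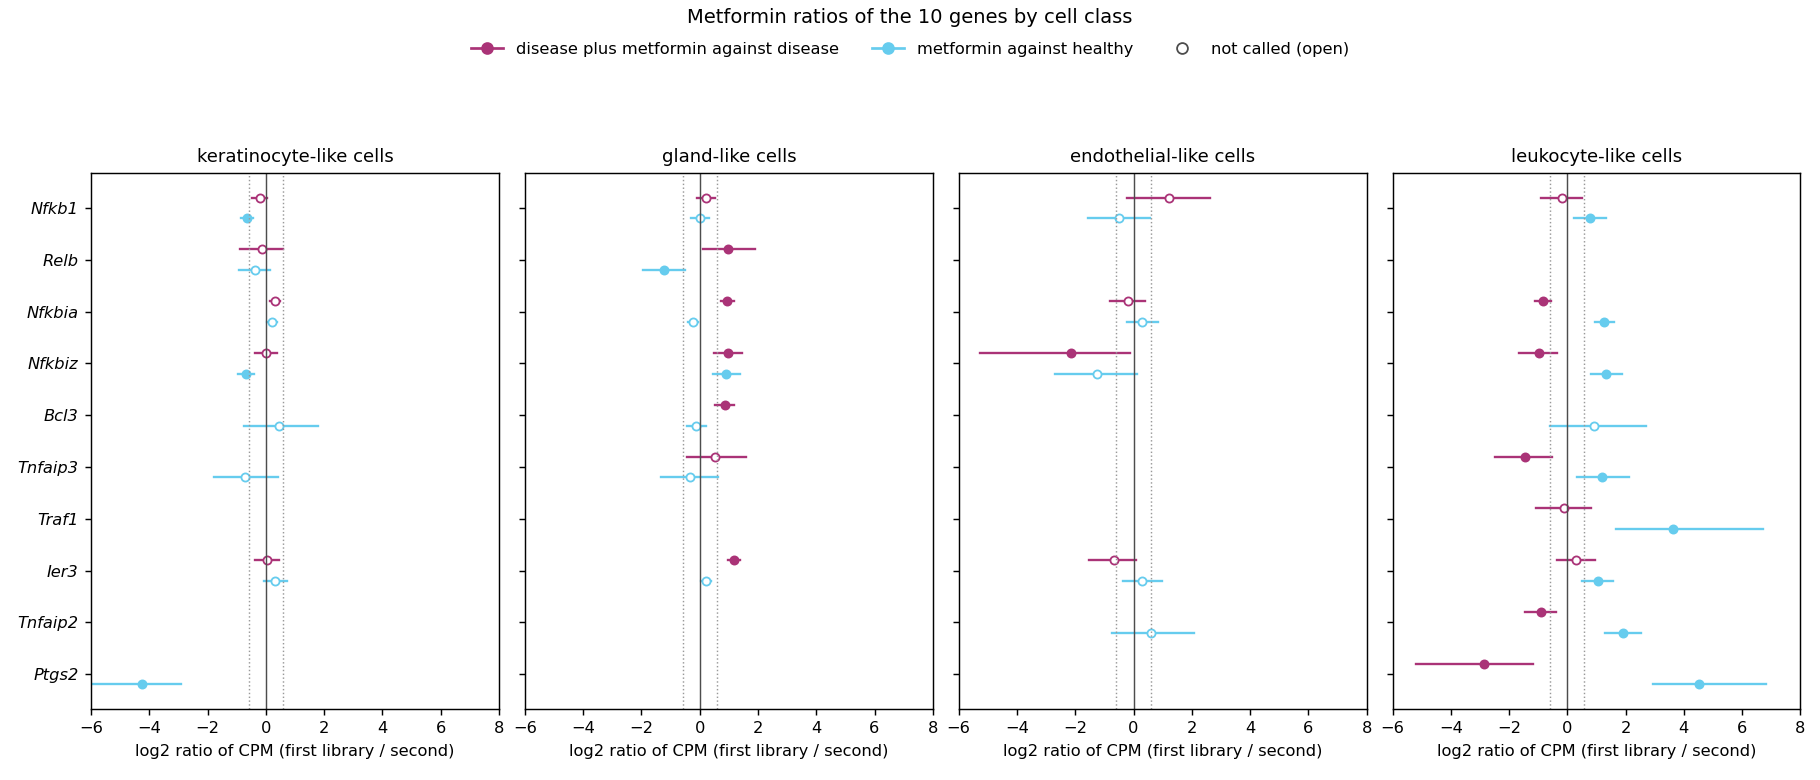
Log2 ratio of CPM of each gene by cell class for both metformin comparisons, with 95% counting intervals that end at the panel edge where they run beyond it. In leukocyte-like cells the called points of metformin against healthy lie above 0 and those of disease plus metformin against disease below it. In gland-like cells all 7 measured genes lie above 0 in the diseased pair, and 5 of them are called.

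Against the metformin library, diseased gingiva with metformin had more Bcl3 and Ier3 RNA and less Tnfaip2 and Ptgs2 RNA over all barcodes. Bcl3 was 2.45-fold and Ier3 1.63-fold higher, Ptgs2 10.9-fold lower on 7 against 124 UMIs and Tnfaip2 2.33-fold lower (4 of 10 genes, where 22.4% of 14678 genes were called, 9.97% higher and 12.4% lower). In gland-like barcodes Bcl3, Relb and Ier3 were 1.72-, 1.69- and 1.51-fold higher, 3 of 7 genes where 10.3% of 11306 were called, 3.62% higher and 6.73% lower. The Relb call ended under 5 of 11 alternatives and the Ier3 call under 1. When every barcode was weighted equally the log2 ratio of Relb was 0.61, with the interval of the summed counts moved to -0.08 to 1.34. Of the immediate-early list 10 of 23 genes were called higher there and 1 lower. In leukocyte-like barcodes 8 of 9 genes were called lower and none higher (33.2% of 3203 genes were called, 17.8% higher and 15.5% lower). Without the Retnlg-bearing subcluster the Tnfaip2 ratio there was 0.28 in place of -1.77, and the Traf1 call ended. With classes given barcode by barcode from markers, the calls of Nfkbia (-0.58), Ier3 (-0.56) and Traf1 (-0.35) ended. Of the immediate-early list 11 of 19 genes were called lower in these barcodes and 0 higher. None of 7 genes was called in keratinocyte-like (9.35%, 6.20% higher and 3.15% lower) and none of 4 in endothelial-like barcodes (10.1%, 5.56% higher and 4.58% lower).

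The wider pathway was read from 104 further genes in lists of receptors, ligands, kinases and adaptors, inhibitors, feedback genes, survival genes, other targets and prostaglandin genes. In disease against healthy over all barcodes, 31 of 90 measured were called higher and 0 lower, where 12.3% of all genes were called higher and 4.58% lower. Their median log2 ratio was 0.33, beside 0.15 for all genes. Receptors (8 of 15 higher), ligands (4 of 6) and other targets (13 of 20, with Tnfaip2 and Ptgs2 among the measured) led this count, while none of 8 prostaglandin genes was called. Vcam1 and Icam1, adhesion molecules that hold white blood cells to vessels, were at 8.27 against 0.644 CPM and 15.6 against 3.68 CPM. The receptor Tlr2, which reads bacterial lipoproteins, was at 3.86 against 0.736 CPM, and the cytokine Il1b at 49 against 20 CPM. The other IkB genes Nfkbie and Nfkbid were 2.05-fold and 1.79-fold higher.

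In disease plus metformin against disease, 6 of 92 further genes were called higher and 29 lower, where 7.04% of all genes were called higher and 21.4% lower. Their median log2 ratio was -0.29, beside -0.24 for all genes. Il1rn, the IL-1 receptor antagonist, was 5.51-fold lower, Il1r2, a decoy receptor, 3.28-fold lower, and Il1b 2.69-fold lower. Vcam1 was 3.00-fold lower and Cxcl2, a chemokine for neutrophils, 2.55-fold lower at 41.5 against 105.5 CPM. Pla2g4a, the phospholipase that frees the substrate of cyclooxygenases, was 2.21-fold lower, and of 9 measured prostaglandin genes 4 were called lower, Pla2g4a and Ptgs2 among them, and 1 higher. Irf1 (1.95-fold) and Lcn2 (1.78-fold) were higher. The family subunit Rel was 1.57-fold lower. Neutrophil-like barcodes, which were 10 in the disease library and 0 with metformin, lie among the barcodes of these sums, and their part in the sums was not tested.

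In metformin against healthy, 14 of 89 further genes were called higher and 6 lower, where 6.77% of all genes were called higher and 9.05% lower. Their median log2 ratio was 0.06, beside -0.06 for all genes. Il1b was 2.81-fold, Gadd45b, a stress-induced survival gene, 2.47-fold and Icam1 2.33-fold higher, while Ltb was 2.61-fold and Cxcl1 1.56-fold lower. In disease plus metformin against metformin 15 of 91 were higher and 8 lower (9.97 and 12.4% of all genes), with Tnf 1.82-fold and Cxcl1 2.02-fold higher and Il1b 3.08-fold lower.

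Across 19 sums of a class in a library, the genes whose log2(CPM + 1) was most like that of Nfkbia among 11234 ranked genes were Mcl1 (Pearson r 0.99), Samhd1 (0.97) and Tpm3 (0.95). For the sum of the 10 genes they were Mcl1 (0.98), Samhd1 (0.98) and Gadd45b (0.95). All 4 were highest in leukocyte-like barcodes, and the points share libraries and depths, so these values are descriptions.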

How the data were processed

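The deposited values were raw UMI counts for each gene in each barcode. Per the submitters' processing notes, the authors used bcl2fastq and Cell Ranger 7.0.1 with the build mm10. Genes with the same symbol were summed. A barcode was kept from 200 detected genes upward, unless over 20% of its UMIs were mitochondrial. The doublet caller of scanpy 1.11.5 marked 5 of 7134 barcodes (0.0701%), below the 0.5% taken as the least for a working caller, so doublets were in effect not removed, and 7129 barcodes remained. Total deposited UMIs ran from 12507787 to 22333858 per library. Barcodes of all libraries were clustered together (2000 variable genes without the 10 genes and the pathway lists, 30 principal components, 15 neighbours, Leiden resolution 1) and clusters were named from 18 marker lists. Leukocyte-like barcodes were clustered again with 10 components. Classes with at least 20 barcodes in both libraries were compared. Ratios have conditional exact binomial intervals, levels exact Poisson intervals and shares exact Clopper-Pearson intervals (scipy 1.17.1). Differences between 2 log2 ratios have approximate intervals from the summed variances of the log counts, which are rough on few UMIs. With every barcode weighted equally, the interval of the summed counts was moved to the new ratio and does not cover variation between barcodes. The ratio procedure was run on simulated independent counts, which do not show how it performs where UMIs gather in few barcodes. A count of 0 was read as up to 3 UMIs. From each pathway list at most 2 genes each way per comparison were named, those called with the interval bound farthest from no difference and no barcode holding over 20% of their UMIs. Nfkbia and the sum of the 10 genes were each given the 3 genes most like them. The 10 genes, the lists and the rules were chosen with earlier results of these data known. Alternatives covered scaling, filters, clustering, weighting of barcodes and the call rule.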

Additional observations from a re-analysis of the deposited data

Results flagged for a closer look

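For 7 values the metformin ratio in diseased gingiva lay on the other side of no difference from that in healthy gingiva (metformin against healthy), with both called. The differences, in diseased minus in healthy gingiva on the log2 scale, were not tested, and each group is 1 library. Over all kept barcodes Tnfaip2 differed by -3.00. In gland-like barcodes Relb differed by 2.18, from 0.96 in diseased and -1.21 in healthy gingiva. In leukocyte-like barcodes Nfkbia differed by -2.11, Nfkbiz by -2.31, Tnfaip3 by -2.63, Tnfaip2 by -2.80 and Ptgs2 by -7.37. The Ptgs2 value rests on 3, 118, 33 and 3 UMIs in healthy, metformin, disease, and disease plus metformin leukocyte-like barcodes. The neutrophil-like barcodes in these classes numbered 2, 5, 10 and 0.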

How the results depend on the processing

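No paired analysis was possible because each group is 1 library and the labels carry no replicate numbers, and no replicate could be left out. Of 114 alternative values of summaries (such as counts of called genes and their medians), 107 stayed close to the reported value. The median log2 ratio in disease against healthy was 0.045 with totals that leave out the 100 most abundant genes and 0.572 with every barcode weighted equally, in place of 0.196. With every barcode weighted equally the called genes were 5 in place of 3 in disease against healthy, 7 in place of 4 in disease plus metformin against disease, and 4 in place of 2 in metformin against healthy. The last count was 4 without the 5% of barcodes with the most UMIs, and 1 with at least 100 UMIs, since Traf1 is then not measured. Of 1727 alternative values of single genes, 1570 were close to the reported one, 145 moved and 12 were counted as reversed. Some of the 145 also changed sign. One was Nfkb1 over all kept barcodes in disease against healthy, at -0.13 with every barcode weighted equally. Of the 65 calls of single genes, 27 held under every alternative that gave a value and 38 ended under at least 1. Leiden resolution 2, which adds the Ltf-led cluster to the gland class, gave 0.0353 for Nfkbia in disease against healthy and -0.229 for Relb in disease plus metformin against disease. With every barcode weighted equally Ier3 in endothelial-like barcodes was -0.00776 in disease against healthy and Nfkb1 in leukocyte-like barcodes -0.279 in metformin against healthy. With barcodes assigned by their own markers Ier3 in leukocyte-like barcodes was 0.0923 in disease against healthy. The cause of these 3 values was not tested. The settings that leave out leukocyte subclusters, unnamed clusters or erythroid-like barcodes were chosen after seeing the data. Without the Retnlg-bearing subcluster, the leukocyte ratios in disease plus metformin against disease were 0.0996 for Nfkbia, 0.22 for Nfkbiz, 0.0851 for Tnfaip2 and 0.5 for Ptgs2, that of Ptgs2 in disease against healthy was -0.481 and that of Tnfaip2 in disease plus metformin against metformin 0.28. Without the Ngp-bearing subcluster too, Nfkbiz in disease plus metformin against disease was 0.00366. Counts limit the fibroblast-like, endothelial-like and leukocyte-like values most, where many genes rest on under 50 UMIs.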
